A study of Mus musculus with 4 samples.

Results

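The genes described here are 4 secreted ADAMTS proteases, Adamts1, Adamts4, Adamts5 and Adamts9, and 6 components of the perineuronal net, namely the lecticans Acan, Bcan, Ncan and Vcan with the net proteins Hapln1 and Tnr. They were found by gene symbol, current or older, among the non-control probes of a whole-genome mouse array. All 10 of 10 symbols had a probe, with 19 probes in all, among 27670 gene names on the array. Each of the 10 had a brightest probe well above background in both arrays of at least 1 RNA group, and so entered the test with 19127 genes in total.

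Perineuronal nets are dense extracellular lattices around neurons, best known around fast-spiking inhibitory interneurons. A lectican is a proteoglycan core protein with chondroitin sulfate chains. It binds a hyaluronan strand at one end, where a link protein such as Hapln1 locks it in place, and tenascin-R, the product of Tnr, ties lecticans together at the other end. ADAMTS proteases of the aggrecanase group cut lectican core proteins at defined sites and so take nets apart, and they are kept in check by tissue inhibitors of metalloproteinases.

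The RNA came from brains of male C57BL/6J mice, 8 to 12 weeks old, in 4 groups of 3 mice: permanent middle cerebral artery occlusion (PMCAO) for 6 h, sham operation for 6 h, PMCAO for 24 h and sham operation for 24 h. The occlusion is a model of ischemic stroke made with a nylon filament, the sham operation exposed the neck arteries only, and saline was injected into the cerebral ventricle in both. By the series' design text the contralateral hemisphere was put on the arrays, while the sample labels say only brain, so the ratios below may come from tissue outside the occluded territory. Each time had 2 two-colour arrays of opposite dye orientation, called array 1 (PMCAO RNA in Cy5) and array 2 (PMCAO RNA in Cy3). The labels do not say whether the arrays of a time carried separate RNA, nor how the RNA of 3 mice was combined, so the p-values measure the spread between arrays, which may be technical. The share of spots well above background was 66.3% to 73.7% for PMCAO RNA and 67.3% to 73.6% for sham RNA. All 7 neuron markers, all 7 astrocyte markers and all 6 oligodendrocyte markers examined passed the background filter. In whole tissue, fewer cells of a type and less RNA per cell cannot be told apart.

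For Adamts1 and Adamts9, which have the 2 largest ratios among the members at 24 h, the array carried more than 1 probe, and the probes gave different sizes of response. The dimmer probes had low signals. In sham RNA at 6 h, the dimmer Adamts1 probe had levels of 149.1 and 103.6, and the dimmest Adamts9 probe 116.3 and 84.2. A Vcan probe not above background had 92.5 and 88.7 there. Whether the low signal made the ratios of the dimmer probes smaller was not tested. The 60-base sequences of the dimmer Adamts1 probe and of the brightest Adamts9 probe are given from the array files, with positions in mouse build mm7. The first lies at chr16:85791871-85791930 and the second at chr6:92861199-92861258, both on the minus strand.
Adamts1, dimmer probe: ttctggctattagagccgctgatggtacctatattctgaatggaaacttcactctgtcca
Adamts9, brightest probe: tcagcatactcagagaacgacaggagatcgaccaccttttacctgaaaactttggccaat

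The promoter windows of these 2 proteases are shown because both rose at both times. Each holds 250 bases before and 50 bases after the gene's start (RefSeq, build GRCm38.p6). The Adamts1 window is chr16:85803064-85803363 and the Adamts9 window chr6:92943485-92943784, both written along the minus strand. Capitals mark matches, on either strand, to the TATA box letters TATAAA, the GC box letters GGGCGG or the core TGACG of the cyclic AMP response element. They also mark ACGTG, a form of the hypoxia response element core, and the letters TGANTCA of the AP-1 site. The other form of the hypoxia core, GCGTG, was not searched and stands unmarked in both windows. No 2 of the matches shown overlap.
Adamts1, promoter: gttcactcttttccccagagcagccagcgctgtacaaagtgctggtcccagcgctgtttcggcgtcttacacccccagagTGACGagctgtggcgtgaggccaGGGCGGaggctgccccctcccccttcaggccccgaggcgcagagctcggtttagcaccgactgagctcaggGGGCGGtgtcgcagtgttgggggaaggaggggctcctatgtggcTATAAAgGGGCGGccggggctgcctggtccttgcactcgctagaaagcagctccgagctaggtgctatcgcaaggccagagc
Adamts9, promoter: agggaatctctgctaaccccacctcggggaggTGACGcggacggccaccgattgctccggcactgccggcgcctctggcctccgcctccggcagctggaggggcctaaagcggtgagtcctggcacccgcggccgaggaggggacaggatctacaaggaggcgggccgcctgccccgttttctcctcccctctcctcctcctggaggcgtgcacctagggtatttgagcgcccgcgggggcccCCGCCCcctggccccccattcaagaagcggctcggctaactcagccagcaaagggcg
Of the 10 genes, 8 had an entry in the promoter table, and Adamts4 and Adamts5 did not. TGACG was found in 3 of the 8 windows (Adamts1, Adamts9 and Hapln1), against 20.8% of 32851 promoter windows. GGGCGG was found in 6 of the 8, against 35.7% of all windows. TATAAA was found in 2 of the 8 (Adamts1 and Ncan), against 13.6%, and ACGTG in 1 of the 8 (Ncan), against 19.6%. TGANTCA was found in 0 of the 8, against 7.81%. A match describes letters in the window and shows no binding.

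The first comparison was PMCAO over sham at 6 h. Adamts1 and Adamts9 rose, and the other 8 genes did not pass the test (moderated test in limma, Benjamini-Hochberg adjusted p under 0.05 over all genes tested). The count of 2 of 10 higher and 0 of 10 lower stands beside 0.816% of all genes called higher and 0.0366% called lower. At an unadjusted p under the same threshold, 3 of 10 were higher and 0 lower. Of all 19127 genes, 1673 lay under that unadjusted threshold in either direction. The median log2 ratio of the 4 proteases was 0.61 and that of the 6 net components 0.01, beside -0.01 over all genes.

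Adamts1, a protease that cuts versican and aggrecan, had channel levels of 2886 and 2931 in PMCAO brain, against 978.0 and 889.7 in sham brain, in normalised intensity units. The groups did not overlap, as was the case with PMCAO above sham for 23.6% of all genes. Its log2 ratio was 1.56 on array 1 and 1.72 on array 2, with a mean of 1.64 ± 0.09 (SE, n = 2 arrays), a 3.12-fold rise (adjusted p = 0.00451). The dimmer Adamts1 probe gave 0.33 and 0.98, with a mean of 0.65 ± 0.16 that did not pass the test over all probes above background (adjusted p = 0.290, with 0.611% of those probes called higher).

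Adamts9, a large and evolutionarily old member of the family that cuts versican and aggrecan, had levels of 658.9 and 681.4 in PMCAO brain, against 332.5 and 280.0 in sham brain at 6 h. Its log2 ratio averaged 1.13 ± 0.10 (SE, n = 2), a 2.20-fold rise (adjusted p = 0.0152). Both PMCAO levels lay above both sham levels, as for 23.6% of all genes. The 2 dimmer probes of Adamts9 gave mean log2 ratios of 0.23 and 0.40, neither of which passed. The second of these was not well above background in sham brain at 6 h, where PMCAO was at least 1.32-fold higher. Such a bound sets the PMCAO mean against a floor for sham, per array the larger of the probe's own signal and the lowest signal detected. Without array 2 of 6 h, the Adamts9 ratio was 0.99 and no longer passed (adjusted p = 0.0575).

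Adamts4 and Adamts5, the main aggrecanases of cartilage and both present in brain, gave log2 ratios near 0 at 6 h. Adamts4 had levels of 474.5 and 478.1 in PMCAO brain, against 450.5 and 452.1 in sham brain (log2 ratio 0.08 ± 0.08, adjusted p = 0.991). Adamts5 had levels of 330.8 and 322.0 in PMCAO brain, against 329.5 and 359.1 in sham brain, with overlapping groups (-0.08 ± 0.10, adjusted p = 1.00). Over the 4 proteases, the log2 ratios at 6 h lay between 0.01 and 1.56 on array 1 and between -0.16 and 1.72 on array 2.

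**Figure D1:**
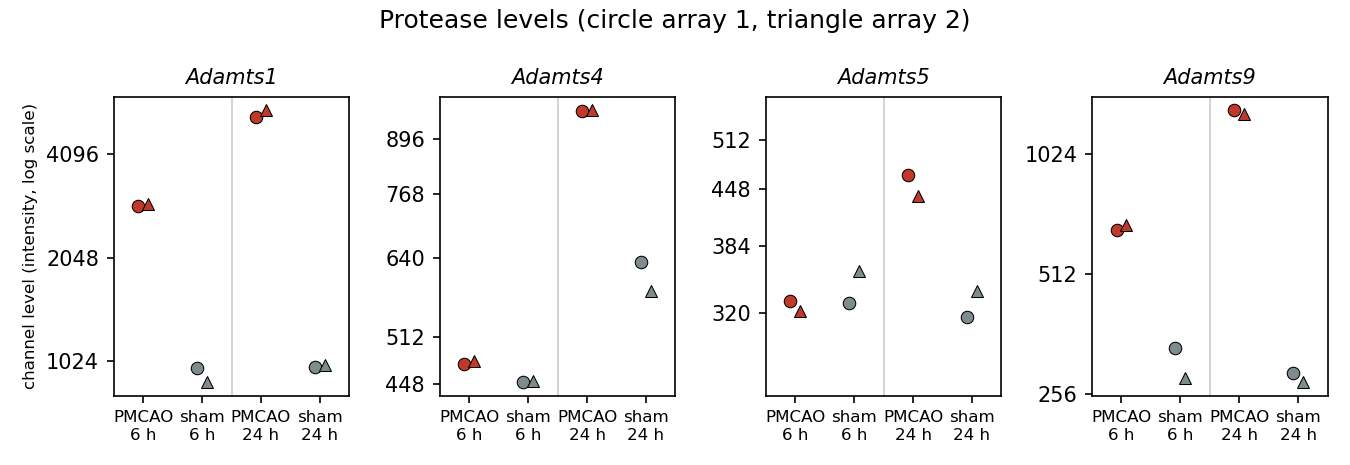
Channel level of each protease (vertical axis, normalised intensity, log scale, a separate scale per gene) in PMCAO (red) and sham (grey) brain at 6 h and 24 h. Circles are array 1 and triangles array 2. At 24 h both PMCAO levels lie above both sham levels for all 4 genes, as they do for 28.8% of all genes.

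The second comparison was PMCAO over sham at 24 h. All 4 proteases and the lectican Acan rose, and none of the 10 genes passed as lower in the fit of all 4 arrays. The count of 5 of 10 higher and 0 of 10 lower stands beside 7.84% of all genes called higher and 4.52% called lower. At an unadjusted p under the threshold, 5 were higher and 1 was lower. Of all 19127 genes, 5506 lay under that unadjusted threshold in either direction. The median log2 ratio was 1.45 for the proteases and -0.12 for the 6 net components, beside 0.00 over all genes. With the arrays centred on the median in place of loess, 0 of the 10 genes passed at either time, although the log2 ratios of Adamts1 and Adamts9 were 2.29 and 2.13 at 24 h.

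Adamts1 had levels of 5243 and 5504 in PMCAO brain, against 986.0 and 994.8 in sham brain at 24 h. Its log2 ratio was 2.41 and 2.47 on the 2 arrays, with a mean of 2.44 ± 0.09 (SE, n = 2), a 5.42-fold rise (adjusted p = 0.000202). The PMCAO levels stood far above the sham levels, and the sham levels were close to those of sham brain at 6 h. The dimmer probe, whose sequence is given above, passed as well, at 1.75 ± 0.16 (adjusted p = 0.00436 over all probes above background, of which 6.57% were called higher).

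Adamts9 had levels of 1324 and 1295 in PMCAO brain, against 288.1 and 273.9 in sham brain at the same time. Its mean log2 ratio was 2.22 ± 0.10 (SE, n = 2), a 4.66-fold rise (adjusted p = 0.000324). Its 2 dimmer probes passed with smaller ratios, 0.78 (adjusted p = 0.0169) and 1.20 (adjusted p = 0.00297).

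Adamts4 had levels of 971.4 and 973.5 in PMCAO brain, against 633.7 and 582.3 in sham brain at 24 h. Its log2 ratio was 0.68 ± 0.08 (SE, n = 2), a 1.60-fold rise (adjusted p = 0.00785). The groups did not overlap, as was the case with PMCAO above sham for 28.8% of all genes at 24 h. Adamts4 cuts brevican and aggrecan, and in the central nervous system it is also expressed by oligodendrocytes.

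Adamts5 had levels of 466.3 and 440.1 in PMCAO brain, against 316.6 and 340.5 in sham brain at 24 h. Its log2 ratio was 0.46 ± 0.10 (SE, n = 2), a 1.38-fold rise (adjusted p = 0.0355). The groups again did not overlap, as for 28.8% of all genes with PMCAO above sham. The call did not pass with the spread of the 24 h arrays alone (adjusted p = 0.0615). Leaving out either array of 6 h gives that same fit. The second Adamts5 probe was well above background on 1 of the 2 PMCAO arrays at 24 h and on none of the sham arrays, and was not tested.

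**Figure D2:**
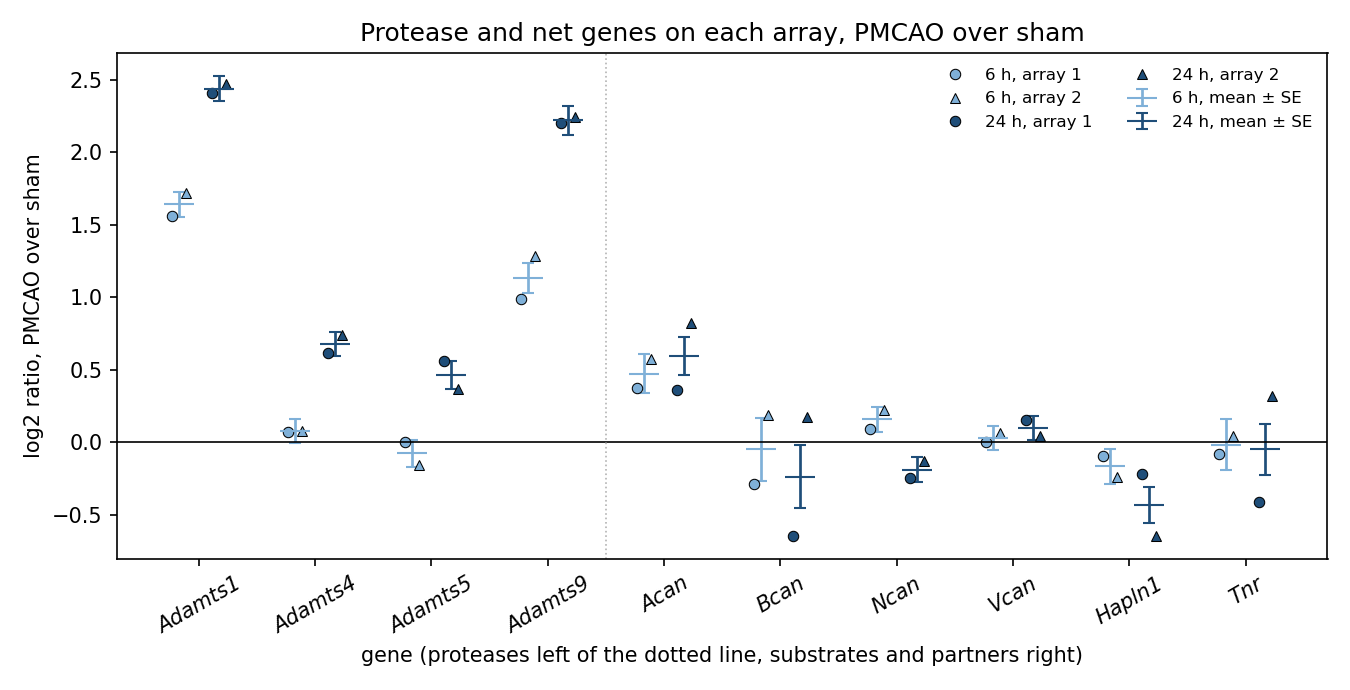
Log2 ratio of PMCAO over sham (vertical axis) for each gene at 6 h (light) and 24 h (dark), with circles for array 1, triangles for array 2, and bars for the mean and standard error of the model. Adamts1 reaches 2.44 and Adamts9 2.22 at 24 h, while the means of Bcan, Ncan and Vcan lie between -0.24 and 0.16.

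Among the net components, Acan, which encodes aggrecan, a lectican central to the nets around interneurons, was the one that passed at 24 h. Its levels were 399.3 and 477.3 in PMCAO brain, against 310.2 and 269.1 in sham brain. The log2 ratio was 0.36 on array 1 and 0.83 on array 2, with a mean of 0.60 ± 0.13 (SE, n = 2), a 1.51-fold rise (adjusted p = 0.0455). The call sat at the threshold, with adjusted p = 0.0513 over all probes above background and 0.0864 with the scanner software's processed signals. At 6 h its levels were 495.8 and 486.9 in PMCAO brain, against 382.8 and 327.2 in sham brain (log2 ratio 0.47 ± 0.13, adjusted p = 0.322). The same ratio passed at 6 h with the spread of the 6 h arrays alone (adjusted p = 0.000223). Leaving out either array of 24 h gives that same fit, which called 940 of all genes higher, against 156. The Acan ratio at 6 h also passed with the array number as a replicate block (adjusted p = 0.00287). PMCAO lay above sham on all 4 arrays. Without array 2 of 24 h, the ratio at 24 h was 0.36 (adjusted p = 0.0443).

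Hapln1, the link protein that fastens lecticans to hyaluronan, had lower levels in PMCAO brain on all 4 arrays, without passing the test. Its levels at 24 h were 193.9 and 185.4 in PMCAO brain, against 226.0 and 289.5 in sham brain (log2 ratio -0.43 ± 0.12, adjusted p = 0.0851). At 6 h they were 258.0 and 264.8 in PMCAO brain, against 274.9 and 312.6 in sham brain (-0.17 ± 0.12, adjusted p = 0.910). Its second probe gave -0.15 at 6 h and -0.27 at 24 h, also short of the test. The size at 24 h depended on the processing. It was -0.76 with the scanner software's processed signals (adjusted p = 0.0518) and -0.35 with the mean of its probes (adjusted p = 0.0869). Without array 1 of 24 h, the ratio at 24 h was -0.64 and passed (adjusted p = 0.000116), with 1 dye orientation left at that time.

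Ncan, which encodes neurocan, a lectican made largely by astrocytes and neurons, had levels of 35140 and 33968 in PMCAO brain, against 41737 and 37119 in sham brain at 24 h. The log2 ratio was -0.19 ± 0.09 (SE, n = 2, adjusted p = 0.230). At 6 h the order was the other way round, with 31396 and 31381 in PMCAO brain, against 29448 and 26814 in sham brain (0.16 ± 0.09, adjusted p = 0.773). Neither time passed. The groups did not overlap at either time, PMCAO lying above sham at 6 h (23.6% of all genes) and below it at 24 h (28.3%). The share of all genes with PMCAO below at 6 h was 22.6%, and with PMCAO above at 24 h 28.8%.

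Bcan, which encodes brevican, a short lectican of astrocytes and oligodendrocyte precursors that Adamts4 cuts, had opposite signs on the 2 arrays of each time, which differ in dye orientation. Its log2 ratio at 24 h was -0.64 on array 1 and 0.17 on array 2 (mean -0.24 ± 0.22, adjusted p = 0.542), and at 6 h it was -0.28 and 0.19. Tnr, whose probe reads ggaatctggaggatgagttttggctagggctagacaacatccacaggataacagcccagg and spans chr1:159876689-159881059 on the plus strand of build mm7, a span longer than its 60 bases, behaved in the same way. Its log2 ratio at 24 h was -0.41 on array 1 and 0.32 on array 2 (mean -0.05 ± 0.18, adjusted p = 0.896), and at 6 h it was -0.08 and 0.05. Without array 2 of 24 h, which leaves 1 dye orientation at that time, both were called lower at 24 h (Bcan -0.64, adjusted p = 0.000275, and Tnr -0.41, adjusted p = 0.0196). For these 2 genes the direction of the mean is not settled by the arrays.

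Vcan, which encodes versican, a lectican of loose matrix and of the white matter and a substrate of Adamts1 and Adamts9, had 1 of its 5 probes above background. That probe had levels of 154.7 and 141.8 in PMCAO brain, against 139.1 and 137.2 in sham brain at 24 h (log2 ratio 0.10 ± 0.08, adjusted p = 0.498). At 6 h the levels were 141.0 and 140.4 in PMCAO brain, against 140.8 and 134.5 in sham brain (0.03 ± 0.08, adjusted p = 1.00).

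**Figure D3:**
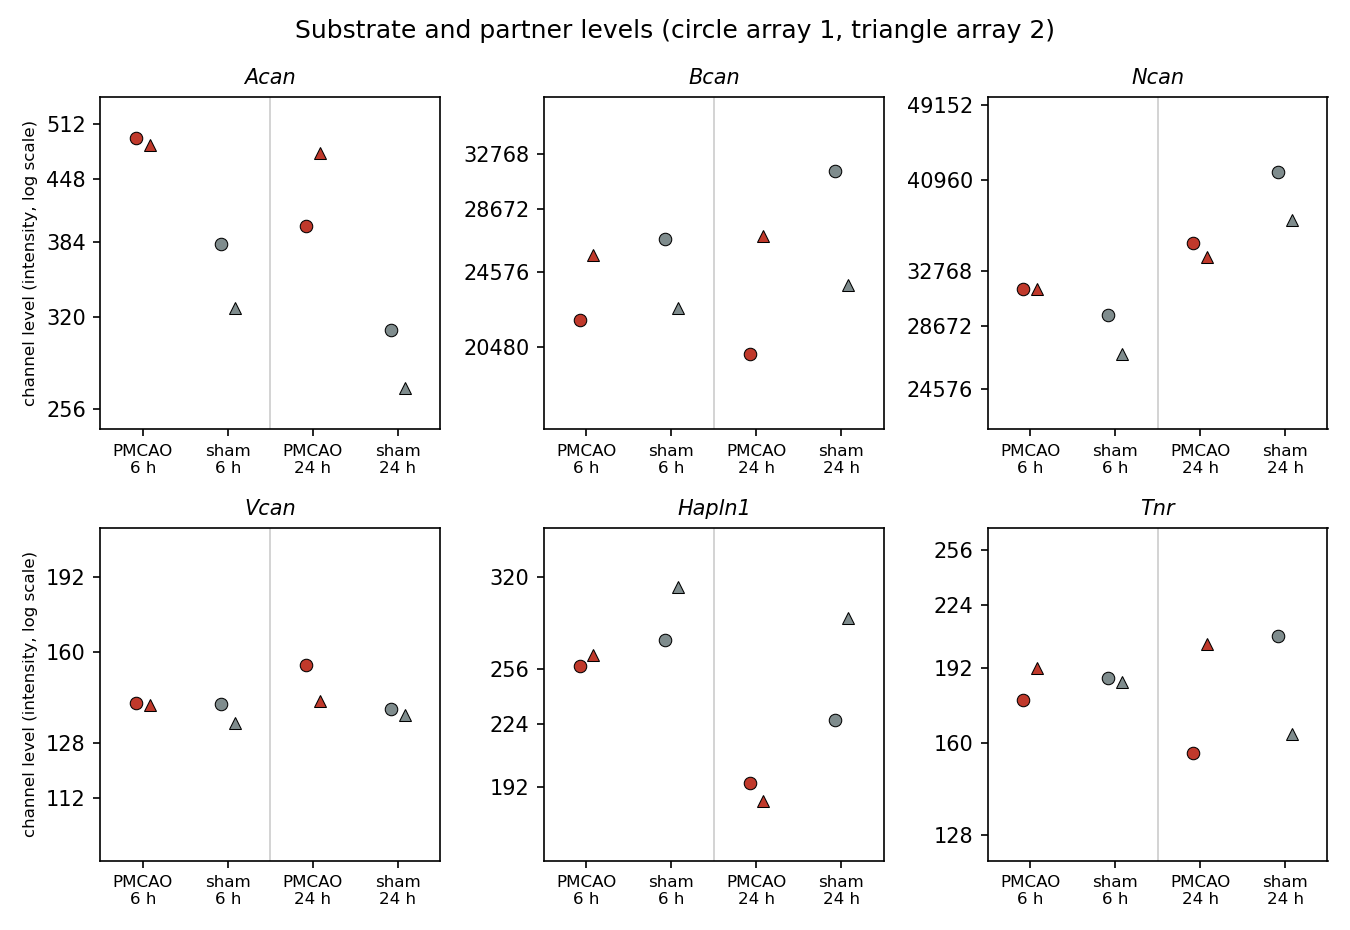
Channel level of each net component (vertical axis, normalised intensity, log scale, a separate scale per gene) in PMCAO (red) and sham (grey) brain at 6 h and 24 h, circles array 1 and triangles array 2. Acan levels in PMCAO brain exceed those in sham brain at both times, Hapln1 levels are lower at both times, and for Bcan and Tnr the 2 arrays of a time run in opposite directions. Over all genes, PMCAO lies above sham without overlap for 23.6% at 6 h and 28.8% at 24 h, and below it for 22.6% and 28.3%.

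The third comparison asked whether the ratio differed between the times, and it compares the responses, not the levels. Adamts9 passed, its log2 ratio being larger at 24 h than at 6 h by 1.09 ± 0.14 (adjusted p = 0.0360), beside 1.29% of all genes called higher and 0.298% called lower. The Adamts1 difference was 0.80 ± 0.12 (adjusted p = 0.0517), that of Adamts4 0.60 ± 0.12 (adjusted p = 0.0876) and that of Adamts5 0.54 ± 0.13 (adjusted p = 0.147). All 4 protease differences were above 0, as was the difference of 53% of all genes, and 1 of the 4 passed. The Adamts9 call was lost without array 1 of 6 h (0.94) and with the processed signals (0.87, adjusted p = 0.0883). The count of members called moved with an array left out, as did the count over all genes.

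The levels of each arm were then set against each other over time, in a separate-channel model whose groups lie on different arrays. In PMCAO brain at 24 h, against PMCAO brain at 6 h, all 4 proteases were higher and Hapln1 was lower, which made 4 of 10 higher (12.8% of all genes) and 1 of 10 lower (8.51%). The log2 difference was 1.03 for Adamts4 (adjusted p = 9.6e-05), 0.97 for Adamts9 (adjusted p = 0.000422) and 0.89 for Adamts1 (adjusted p = 0.000242). It was 0.47 for Adamts5 (adjusted p = 0.00423) and -0.46 for Hapln1 (adjusted p = 0.0325). The Adamts5 and Hapln1 calls were lost with either array of 6 h left out, with adjusted p from 0.0544 to 0.0675 for Adamts5 and from 0.137 to 0.154 for Hapln1.

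In sham brain at 24 h, against sham brain at 6 h, Adamts4 was higher by 0.43 (adjusted p = 0.0221) and Ncan by 0.49 (adjusted p = 0.0300), and none of the 10 was lower, beside 2.64% and 1.68% of all genes. Both calls were lost with either array of 6 h left out (adjusted p from 0.178 to 0.334). Adamts4 levels were highest in PMCAO brain at 24 h, then in sham brain at 24 h, and lowest in both arms at 6 h, which did not differ by the test. Adamts1 and Adamts9 levels were highest in PMCAO brain at 24 h, then in PMCAO brain at 6 h, and lowest in sham brain at either time. Sham levels of Adamts1 and of Adamts9 did not pass between the times (log2 difference 0.09, adjusted p = 0.543, and -0.12, adjusted p = 0.495).

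**Figure D4:**
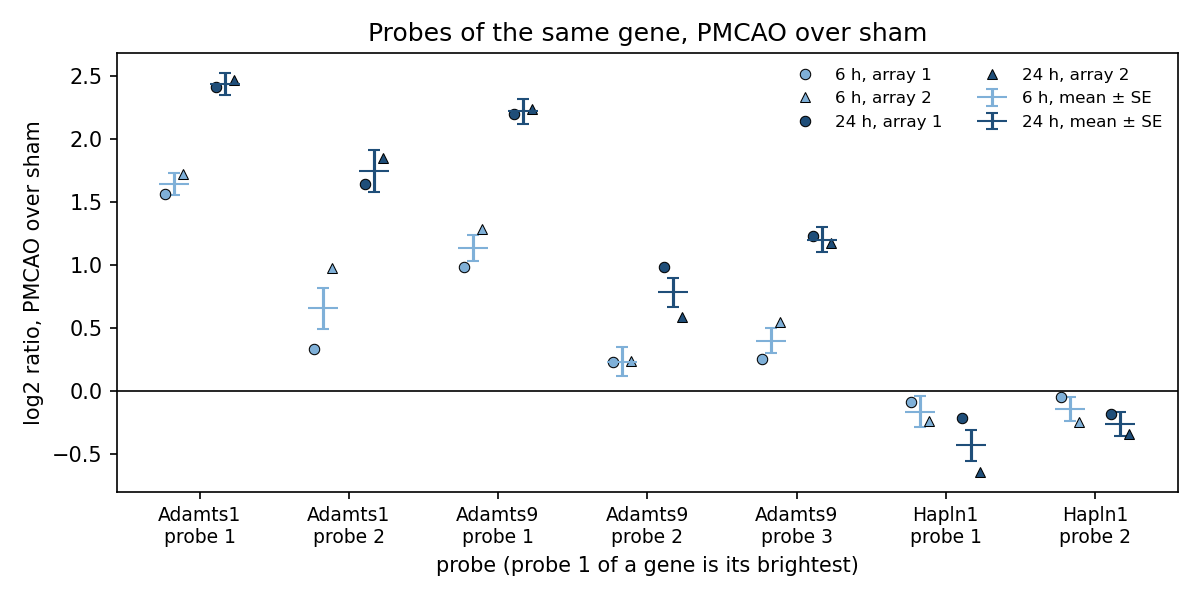
Log2 ratio of PMCAO over sham (vertical axis) for every probe above background of the genes with more than 1 such probe, at 6 h (light) and 24 h (dark), with circles for array 1, triangles for array 2, and bars for mean and standard error. The brightest probes of Adamts1 and Adamts9 gave the larger ratios, and all 5 protease probes and both Hapln1 probes kept their direction at both times. The dimmer protease probes had signals nearer to background.

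The genes whose ratios were most like those of Adamts1 over the 4 arrays were Ccn1, a matricellular protein gene (root mean square difference 0.0732 on the log2 scale), Socs3, a feedback inhibitor of cytokine signalling (0.116), and Akap12, a scaffold for protein kinases (0.161). Their log2 ratios at 24 h were 2.35, 2.29 and 2.30. Those nearest Adamts9 were Osmr, the oncostatin M receptor (0.113), Galnt15, a glycosyltransferase gene (0.146), and Emp1, a membrane protein gene (0.147). Their log2 ratios at 24 h were 2.11, 2.05 and 2.28, by the brightest probe of each. The other Osmr probe above background gave 0.15 at 6 h and 0.57 at 24 h. Each is the nearest of 19127 genes over 4 arrays, and this is a description with no test.

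Of 16 other ADAMTS and ADAMTS-like genes tested, 0 passed at 6 h, and at 24 h 1 was higher and 1 lower, with a median log2 ratio of -0.04, beside 7.84% of all genes called higher and 4.52% called lower at 24 h. The one that rose was Adamts13, which cuts von Willebrand factor (0.43 ± 0.09, adjusted p = 0.0365), a call lost with either array of 6 h left out. The one that fell was Adamtsl2, an ADAMTS-like gene without a protease domain (-0.62 ± 0.09, adjusted p = 0.0121). With either array of 24 h left out, more genes of this list passed at both times, in both directions at 24 h, as over all genes.

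Among 10 inhibitors, activators and clearance receptors of ADAMTS proteases, 1 rose at 6 h, 3 rose at 24 h and none fell, with a median of 0.27 at 24 h. Over all genes, 0.816% were called higher at 6 h, and 7.84% higher and 4.52% lower at 24 h. Timp1, an inhibitor directed mainly at matrix metalloproteinases, rose at both times (log2 ratio 1.71 ± 0.09 at 6 h, adjusted p = 0.00451, and 3.62 ± 0.09 at 24 h, adjusted p = 0.000155). Sdc4, a cell-surface proteoglycan known to promote Adamts5 activity, rose at 24 h by 1.24 ± 0.09 (adjusted p = 0.00119). Timp4 rose by 0.42 ± 0.09 (adjusted p = 0.0384), a call lost without array 2 of 24 h or either array of 6 h. Timp3 did not pass at 6 h (0.12, adjusted p = 0.934) or 24 h (0.24, adjusted p = 0.164), and Timp2 passed at neither time. The calls of this list moved at both times with an array of 24 h left out, as did those over all genes.

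Of 5 matrix metalloproteinases tested that also cut lecticans, 0 passed at 6 h and 4 rose at 24 h, with a median of 0.94. The share of all genes called at 24 h was 7.84% higher and 4.52% lower. Mmp3, stromelysin, had a log2 ratio of 4.58 ± 0.13 (adjusted p = 0.000173), its sham channel being well above background on 1 of 2 arrays. Mmp8, the neutrophil collagenase, was not well above background in sham brain and was at least 7.35-fold higher in PMCAO brain (adjusted p = 0.000482). Mmp9 rose by 0.94 ± 0.08 (adjusted p = 0.00237) and Mmp14, a membrane-bound enzyme, by 0.87 ± 0.11 (adjusted p = 0.00942). The count at 6 h moved without array 1 of 6 h or either array of 24 h.

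The hyaluronan scaffold list had 14 tested genes, of which 0 passed at 6 h and 6 rose at 24 h with none lower (median 0.30). This stands beside 7.84% of all genes called higher and 4.52% called lower at 24 h. Cd44, the hyaluronan receptor, rose by 1.70 ± 0.08 (adjusted p = 0.000405). The hyaluronan synthases Has2 and Has1 rose by 0.84 ± 0.09 (adjusted p = 0.00457) and 0.68 ± 0.08 (adjusted p = 0.00709), and Hapln2, a link protein of the nodes of Ranvier, by 0.47 ± 0.08 (adjusted p = 0.0239), lost with either array of 6 h left out. With either array of 24 h left out, genes of this list passed in both directions at 6 h, where more of all genes passed too.

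Of 21 genes of chondroitin sulfate chain synthesis and turnover, 0 passed at 6 h and 1 rose at 24 h, Chpf2, a chain polymerising factor (0.52 ± 0.09, adjusted p = 0.0245), with a median of 0.06. Of 8 chondroitin sulfate receptors and other neural proteoglycans, 0 passed at 6 h and 1 fell at 24 h, Cspg5, neuroglycan C (-0.50 ± 0.10, adjusted p = 0.0310), with a median of -0.09. These single calls stand beside the 7.84% of all genes called higher and 4.52% called lower at 24 h. With either array of 24 h left out, more genes of both lists passed at both times, including lower calls in each list, as over all genes.

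**Figure D5:**
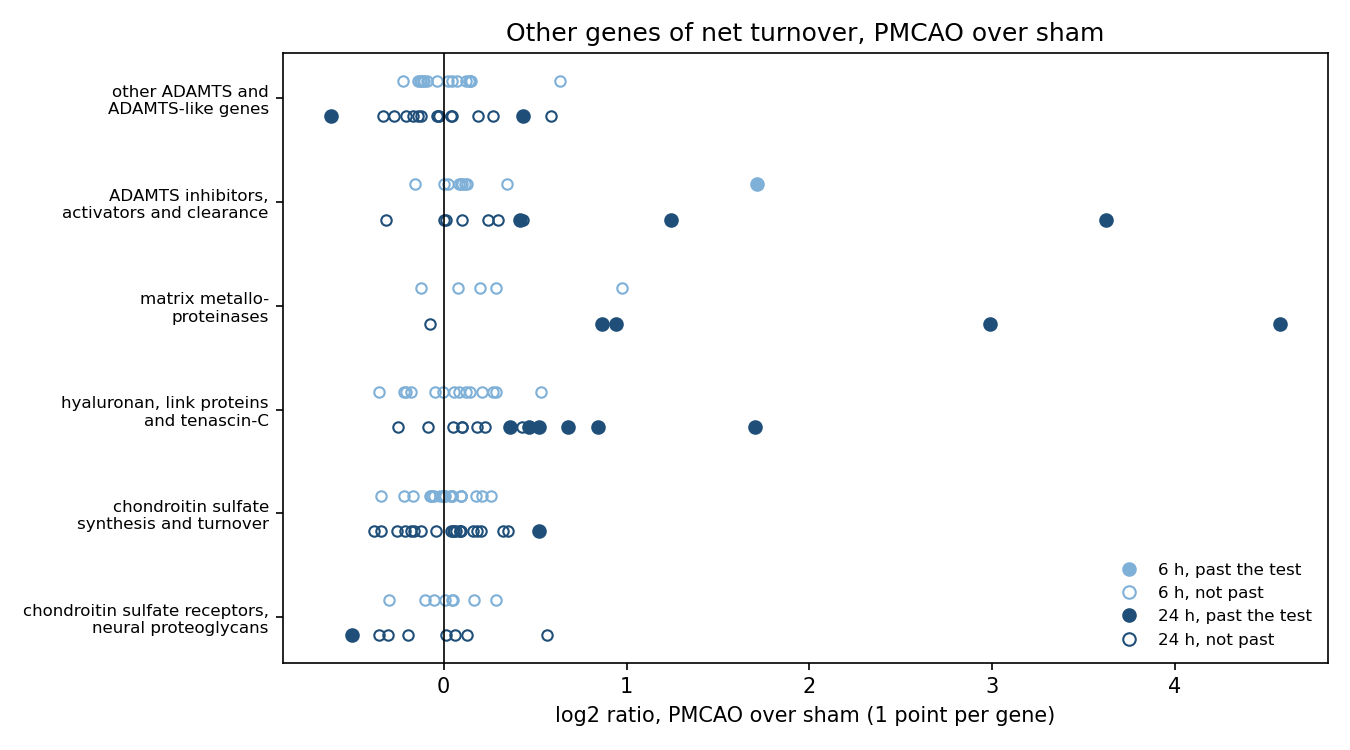
Log2 ratio of PMCAO over sham (horizontal axis) for each tested gene of 6 lists of net turnover, 6 h light and above 24 h dark, filled where the gene passed the test. Timp1 is the single filled point at 6 h, and at 24 h Mmp3 (4.58), Timp1 (3.62) and Mmp8 lie farthest right.

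Markers of several cell types moved in the same comparisons as the proteases. Over all genes, 0.816% were called higher and 0.0366% lower at 6 h, against 7.84% and 4.52% at 24 h. At 24 h, 3 of 8 endothelial markers rose (Cdh5 by 1.45, Esam by 0.94 and Pecam1 by 0.93), and their summed level was 31940 to 37072 in PMCAO brain, against 23898 to 27871 in sham brain. Of the other 5, chosen after their values were seen, Tek (-0.52, adjusted p = 0.0519) and Kdr (-0.33, adjusted p = 0.138) had PMCAO below sham on both arrays of 24 h without passing. With either array of 6 h left out, 4 endothelial markers rose and 1 fell at 24 h. Of 10 mural and meningeal markers, 3 rose (Dcn by 1.13, Kcnj8 by 0.96 and Abcc9 by 0.56), with sums of 41907 to 42856 in PMCAO brain, against 29485 to 30093 in sham brain. All 6 genes of the reactive astrocyte list rose at 24 h. The log2 ratios were 3.88 for Cd14, 2.96 for Lcn2, 2.39 for Serpina3n, 2.11 for Osmr, 1.39 for Vim and 1.25 for Gfap. Their sums were 40508 to 42430 in PMCAO brain, against 12560 to 13764 in sham brain. Which cells these rises came from was not tested. Of 6 neutrophil and monocyte markers tested, 4 rose (S100a9 by 5.84, S100a8 by 5.27, Retnlg by 4.35 and Ccr2 by 0.42), with sums of 63058 to 75323 in PMCAO brain, against 1587 to 1886 in sham brain. At 6 h, 0 endothelial and 0 mural or meningeal markers passed. Of the reactive astrocyte list, 3 rose at 6 h (Cd14 by 2.55, Lcn2 by 1.24 and Osmr by 1.05). Serpina3n (0.53), Vim (0.34) and Gfap (0.31) did not pass there. The Osmr call at 6 h was lost with the mean of its probes. Of the neutrophil markers, 3 rose at 6 h (S100a9 by 2.61, S100a8 by 1.92 and Retnlg by 1.78). With an array of 24 h left out, more endothelial and mural or meningeal markers passed at 24 h, the endothelial ones in both directions. The Ccr2 call was lost with either array of 6 h left out. Fewer genes of the reactive astrocyte list rose at 6 h without array 2 of 6 h, and more with either array of 24 h left out. With either array of 24 h left out, endothelial and mural or meningeal markers passed in both directions at 6 h, where more of all genes passed too. The part of these cells in the protease ratios was not tested.

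Beside the Acan and Hapln1 values stand the markers of cells that make or carry nets. The shares of all genes were again 0.816% higher and 0.0366% lower at 6 h, and 7.84% and 4.52% at 24 h. None of 8 net-bearing interneuron markers passed at either time, the one with the smallest p being Kcnc2, a potassium channel gene (-0.30, adjusted p = 0.109 at 24 h), and their summed level at 24 h was 126205 to 150482 in PMCAO brain, against 113517 to 144156 in sham brain. None of 7 neuron markers passed (Nefm -0.32, adjusted p = 0.157 at 24 h), with sums of 195509 to 199950 in PMCAO brain, against 224338 to 227810 in sham brain. Of 7 astrocyte markers, 3 rose at 24 h (Sox9 by 0.56, Aldh1l1 by 0.54 and Gjb6 by 0.41), with overlapping sums of 107650 to 135609 in PMCAO brain, against 125101 to 145555 in sham brain. Of 7 oligodendrocyte precursor markers, Gpr17 fell at both times (-0.68 at 6 h and -0.90 at 24 h), with sums of 19282 to 21678 in PMCAO brain, against 27759 to 28377 in sham brain at 24 h. A sum is weighted to the brightest genes. The median log2 ratio of these 7 markers at 24 h was -0.09, with 3 of the 7 above 0, beside 50.1% of all genes. Of 7 microglia markers, P2ry12 and Tmem119 fell at 24 h (-1.72 and -0.41), with sums of 33790 to 36646 in PMCAO brain, against 39267 to 42245 in sham brain. No oligodendrocyte marker of 6 (Mobp 0.43, adjusted p = 0.140) and no choroid plexus marker of 5 (Aqp1 0.53, adjusted p = 0.0579) passed at either time. Choroid plexus calls, all higher, appeared at 24 h with either array of 6 h or array 2 of 24 h left out. With either array of 24 h left out, some neuron, net-bearing interneuron and oligodendrocyte markers passed at 24 h, the neuron calls mostly lower. The astrocyte and oligodendrocyte precursor counts at 24 h moved too. At 6 h, more microglia and oligodendrocyte precursor markers were lower with either array of 24 h left out, as were more of all genes. The Gpr17 call at 6 h was lost with either array of 6 h left out, the Tmem119 and Gjb6 calls at 24 h likewise, and Sox9 without array 2 of 24 h (0.34). Their part in the net ratios was not tested either.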

How the data were processed

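RNA was labelled in 2 colours and hybridised to 4 arrays. Per the file headers, Agilent Feature Extraction 9.5.3.1 made the scanner tables, in which the authors deposited each spot's intensity (mean, background and processed signals). The deposited log10 values of those tables are ratios of red over green. A series table deposited by the authors holds 1 signed value per probe, treated here as a score. Its size equalled the processed Cy5 over Cy3 ratio for 100% of probes (tolerance 0.0051). Its sign was negative on array 1 and positive on array 2 of each time (column medians -0.96 and 0.96 at 6 h, -0.91 and 0.95 at 24 h), and what the sign means and whether values were centred stayed unknown. Coordinates in the files refer to build mm7.

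The background was corrected by normexp (offset 50) on mean signals and each array was normalised by loess in limma 3.58.1 (R 4.3.3), giving control spots a weight of 0. Outlier spots (112 to 142 per array) were dropped and saturated spots (0 to 2) kept. Log2 ratios computed from the deposited intensities were turned to PMCAO over sham by dye, spots were averaged per probe, and each gene was represented by its brightest probe. Testing required that probe to be well above background on 2 of 2 arrays for 1 or more of the 4 RNA groups. One linear model of the 4 arrays gave a coefficient per time and their difference, with 2 residual and 3.53 prior degrees of freedom and Benjamini-Hochberg adjustment over 19127 genes at 0.05. Levels come from loess and Aquantile, and their comparison over time from a separate-channel model of 19117 genes (intraspot correlation -0.414). Their unit is normalised intensity, which sets no gene against another. The number of arrays limits precision. All 4 arrays lay on 1 slide, so no slide batch could be tested.

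Of 41174 probes, 22951 were named by accession, 6659 by symbol and 3109 by older symbol in a RefSeq table of GRCm38.p6, and 8455 kept the files' name. The members and lists were chosen with earlier results of these data known. Named are all members, and of each other list up to 4 genes past the test with the smallest p, or else the 1 with the smallest p. Timp2, Timp3, Tek, Kdr, Gfap and Vim were named in addition, after their values were seen. For each member past the test with a log2 ratio of at least 1, the 3 most similar genes are named. Fits were tested on simulated data. The alternatives tried were processed signals, median centring, no filter on dim probes, the mean of a gene's probes, the sample number as a block, the arrays of 1 time alone, each array left out, the deposited table, quantile normalisation between channels, and adjustment over 28978 probes. Plots used matplotlib 3.10.9 (Python 3.11.15).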

Additional observations from a re-analysis of the deposited data

Results flagged for a closer look

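The response differed between the times, by the test of the 24 h minus 6 h difference in limma, for Adamts9 among the 10 genes (1.09 on the log2 scale, adjusted p = 0.0360). Ncan had PMCAO above sham on both arrays of 6 h and below it on both arrays of 24 h, a difference of -0.35 whose test did not pass (adjusted p = 0.292). Among the other named genes of net turnover, the difference passed for Timp1 (1.91), Cd44 (1.17), Sdc4 (1.14), Has2 (1.05) and Mmp9 (0.86). The fit also called Mmp3 (4.29) and Mmp8 (2.01), but their sham channel was not well above background on both arrays of 6 h and, at 24 h, on 1 array for Mmp3 and both for Mmp8, so these differences are not measured sizes. Among the cell type markers it passed for S100a8 (3.35), S100a9 (3.22), Retnlg (2.58), Serpina3n (1.86), Lcn2 (1.72), Cd14 (1.33), Osmr (1.06), Vim (1.05) and Dcn (0.97). All of these but Ncan had the larger log2 ratio at 24 h.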

How the results depend on the processing

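At 6 h, 2 of the 10 genes passed, against 0 with median centring and 1 with the mean of a gene's probes (Adamts1). With the arrays of 6 h alone, 3 passed (Adamts1, Adamts9 and Acan), and the count moved with an array of 6 h left out. At 24 h, 5 passed, against 0 with median centring and 3 with the deposited table (Adamts1, Adamts4 and Adamts9). The count moved with an array left out, and lower calls appeared with an array of 24 h left out (without array 1 Hapln1, without array 2 Bcan and Tnr). For the difference between times, 1 passed, against 0 with processed signals, median centring or the deposited table and 2 without the filter on dim probes. This count moved as well with an array left out. Between the PMCAO groups 5 passed, against 3 to 5, and between the sham groups 2, against 0 to 2, with an array left out. Leaving an array out leaves 1 dye orientation at its time, so a dye effect no longer cancels, and the lone array is assumed to vary like the others. At the other time the ratios stay as they were, and their spread then comes from that time's 2 arrays alone, whichever array was dropped. With the arrays of 6 h alone, 940 of all genes were called higher and 354 lower. The fit as reported called 156 and 7. With an array of 24 h left out, calls over all genes rose at both times and for the difference. Alternatives other than those named here and the replicate block kept each member count within 1.5 times its value. Median centring called 13 genes of the whole table higher at 24 h, against 1499 higher and 864 lower in the fit as reported, and the processed signals called 1243 higher and 1163 lower. It moved the median of the time difference over all genes to -0.10, against 0.01.

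With the array number as a replicate block, 3 members passed at 6 h (Adamts1, Adamts9 and Acan), 8 at 24 h (5 higher, and Bcan, Ncan and Hapln1 lower) and 5 for the difference (4 higher and Ncan lower). The array number also stands for the dye orientation. Over all genes, the fit with this block called 1131 higher and 571 lower at 6 h. At 24 h it called 3913 higher and 3683 lower, and for the difference 1685 higher and 1530 lower. Same-numbered arrays deviated together from the means of their times (correlation 0.718 across genes), but the times used different mice, so the number gives no pairing of samples by design.

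Directions turned for values that had not passed in the fit of all 4 arrays. Adamts5 at 6 h ran between -0.157 and 0.0057 with an array of 6 h left out. Bcan at 6 h was 0.0403 with median centring and ran between -0.28 and 0.19 with an array left out, and at 24 h between -0.64 and 0.17. Tnr ran between -0.0775 and 0.0474 at 6 h and between -0.41 and 0.32 at 24 h. Vcan was -0.018 at 6 h and -0.0467 at 24 h with the mean of its probes, of which 4 of 5 were not above background. Of 43 calls of the other genes named by smallest p, 38 were lost with median centring and 0 to 8 under each other alternative, and none changed direction. Adjustment over all probes was added after seeing the data, and called 4 members at 24 h. The cause of these changes was not tested.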
